A study of Homo sapiens with 12 samples.

Results

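The aryl hydrocarbon receptor (AHR), its partner ARNT and 6 genes that AHR is known to control or that control it (AHRR, TIPARP, CYP1A1, CYP1A2, CYP1B1 and ALDH3A1) were followed by name through the whole expression table, 8 of its 58735 genes. They were chosen by name after the FPKM of CYP1A1 and related genes had been seen to differ between the TNF-α libraries with and without 5-OH-TMT, an indole, so the members' values in that comparison describe the choice and are given without p-values. The cells were NCM460, a human cell line of colonic epithelium, sequenced as poly(A) RNA in 12 libraries of 3 replicates per group. The groups were medium alone, TNF-α, TNF-α with 5-OH-TMT (bufotenidine in the labels), and TNF-α with HTRA2, a mitochondrial serine protease, knocked down by siRNA. All groups but medium therefore carried TNF-α, for which the sources used here give neither a dose nor a time. The study sets its knockdown against a control siRNA, but the labels name none for the TNF-α libraries, so from these labels transfection and loss of HTRA2 cannot be told apart, and the sources do not say whether the 3 knockdown libraries came from 1 siRNA or from several. The level of each gene is in FPKM, fragments counted on the gene and corrected for its length and for library depth.

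AHR is a transcription factor of the bHLH-PAS family that rests in the cytosol in a complex with the chaperone HSP90 and its helper p23 (the product of PTGES3). Ligands such as polycyclic aromatic hydrocarbons and indoles made from tryptophan by diet and gut bacteria bring it into the nucleus, where it pairs with ARNT and binds DNA at the core GCGTG. Its classical targets are cytochrome P450 enzymes that oxidise its ligands, and AHRR and TIPARP, which restrain the receptor in turn; in the gut epithelium this loop is known for its part in barrier and immune defence.

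The core is shown first because the members differ in whether a short window at the start of the gene holds it. RefSeq promoter windows (GRCh38.p14, 250 bases before to 50 after a start site) were matched for 6 of the 8 members, in 9 windows, and CYP1B1 and ALDH3A1 had no entry. The letters GCGTG were searched on both strands, where the opposite strand reads CACGC, and also the longer TNGCGTG, which contains the core. Of the 9 windows 5 held the core, beside 36.5% of all 35116 windows of the same length. CYP1A1 (chr15:74725479-74725778, minus strand), AHRR (chr5:321464-321763, plus strand), TIPARP (chr3:156674340-156674639, plus strand) and CYP1A2 (chr15:74748595-74748894, plus strand) are printed 5′ to 3′ along the gene, with each core in capitals. They were picked as the P450 gene with the widest range of FPKM, both restrainers of the receptor, and the P450 gene next to CYP1A1, which holds none.
CYP1A1: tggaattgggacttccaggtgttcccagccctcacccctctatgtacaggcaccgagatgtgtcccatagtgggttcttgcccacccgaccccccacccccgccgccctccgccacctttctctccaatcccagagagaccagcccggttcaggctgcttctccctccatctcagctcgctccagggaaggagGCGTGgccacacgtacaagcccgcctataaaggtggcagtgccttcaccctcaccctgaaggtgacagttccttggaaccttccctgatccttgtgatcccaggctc
AHRR: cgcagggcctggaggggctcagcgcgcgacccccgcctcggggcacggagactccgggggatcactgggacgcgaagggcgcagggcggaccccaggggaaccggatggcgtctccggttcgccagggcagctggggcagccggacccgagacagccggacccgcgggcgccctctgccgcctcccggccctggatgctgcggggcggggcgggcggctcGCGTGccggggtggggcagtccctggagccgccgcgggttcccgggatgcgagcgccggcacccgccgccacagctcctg
TIPARP: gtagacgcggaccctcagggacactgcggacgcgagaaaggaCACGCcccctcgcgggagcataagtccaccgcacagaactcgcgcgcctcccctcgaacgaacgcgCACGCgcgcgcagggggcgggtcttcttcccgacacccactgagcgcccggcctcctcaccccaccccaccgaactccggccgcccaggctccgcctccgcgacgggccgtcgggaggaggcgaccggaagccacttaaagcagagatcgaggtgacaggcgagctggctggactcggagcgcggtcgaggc
CYP1A2: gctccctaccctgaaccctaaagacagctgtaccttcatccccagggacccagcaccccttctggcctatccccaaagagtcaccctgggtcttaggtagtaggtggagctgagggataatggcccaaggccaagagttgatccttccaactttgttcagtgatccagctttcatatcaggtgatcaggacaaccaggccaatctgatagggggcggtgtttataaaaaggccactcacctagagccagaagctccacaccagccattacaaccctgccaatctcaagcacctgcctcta
The CYP1A1 core began 57 bases upstream of the start. In AHRR it lay 30 bases upstream, as part of the longer motif that 5.51% of all windows held, and a further AHRR window held it at 247 and 42 bases upstream. The TIPARP window held it on the opposite strand at 208 and 142 bases upstream, and 12.7% of all windows held at least 2 cores. AHR held it 38 bases after the start, and no match was found in the windows of ARNT or CYP1A2 or in the other TIPARP windows. A match describes letters and is no evidence of binding. Bases beyond these windows were not searched, so a window without a match does not show that the gene lacks the core.

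Each library had 31008429 to 37624399 reads on genes, recovered as whole numbers from the FPKM. HTRA2 was at 14.5 ± 0.774 FPKM (SD, n = 3) with TNF-α and 7.28 ± 0.137 in the knockdown, a change of -0.98 on the log2 scale (SE 0.0869), so the labels and the targeted gene matched. The epithelial markers KRT8, KRT18, CDH1, EPCAM and KRT19 were present in every library, but the colon markers KRT20, VIL1 and CDX1 had at most 2 reads and CDX2 had none. Of 6 fibroblast genes only COL1A1 reached 1 FPKM, and the summed list lay at 2.62 to 3.24 FPKM in the knockdown against at most 1.46 elsewhere, with DCN at 0 in every library; its part in the knockdown results was not tested. Of 5 leukocyte genes none reached 1 FPKM, with summed levels of 0.231 to 0.524 FPKM in medium, 0.0711 to 0.145 with TNF-α, 0.179 to 0.307 with 5-OH-TMT and 0.294 to 0.727 in the knockdown, and with CD3E at 0. Mitochondrial transcripts took 2.95% of the reads in knockdown replicate 2 and 3.69% in TNF-α replicate 3, below the 4.02% or more of the other 10 libraries. In bulk RNA, fewer cells expressing a gene and less RNA per cell cannot be told apart.

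**Figure D1:**
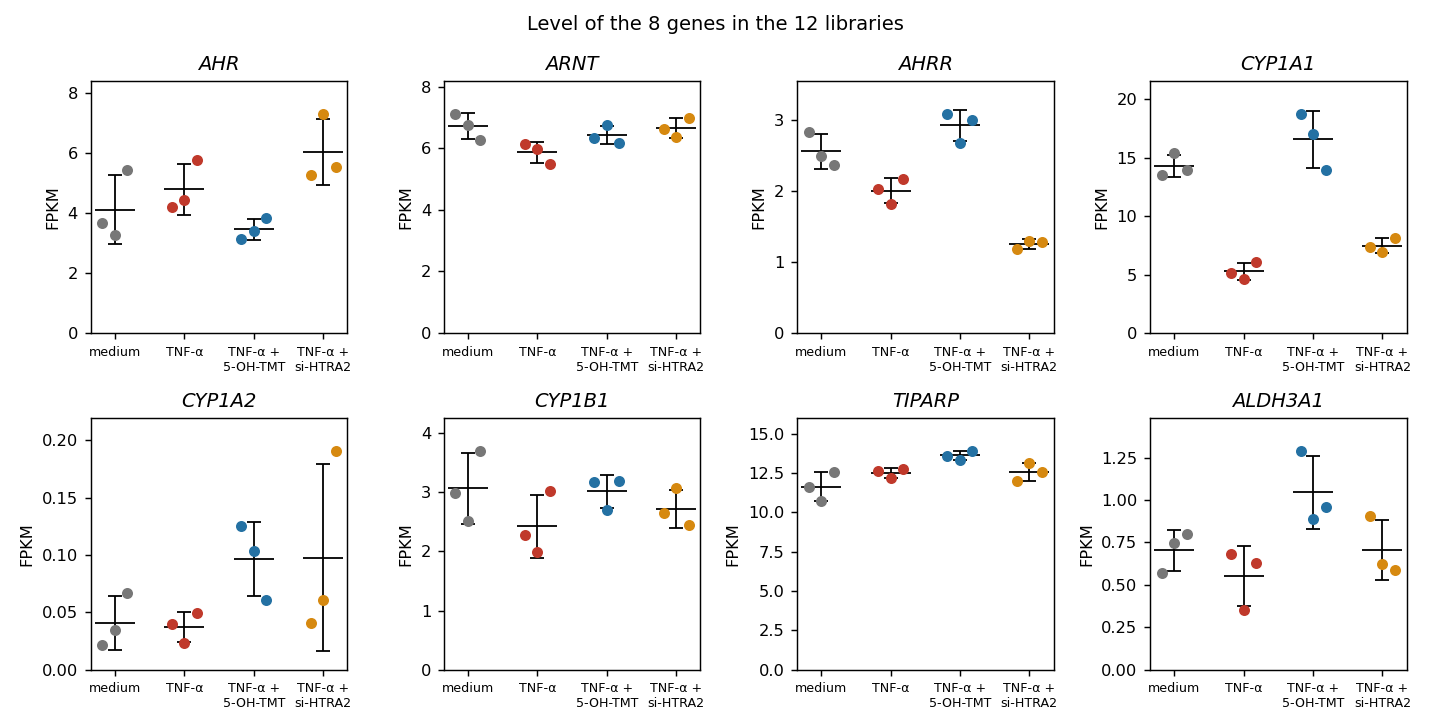
The level of each of the 8 genes in FPKM (vertical axes) in the 12 libraries, 1 point per library, by group (horizontal axes). CYP1A1 lies at 4.64 to 6.09 FPKM with TNF-α and at 14.0 to 18.8 with 5-OH-TMT added, while AHRR is lowest in the knockdown, at 1.18 to 1.30.

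AHR itself, on chromosome 7 from 16916359 to 17346152, was at a moderate level and differed most between the knockdown and 5-OH-TMT. In medium it was at 3.65, 3.28 and 5.42 FPKM in replicates 1 to 3, and with TNF-α at 4.19, 4.43 and 5.76. With 5-OH-TMT it was at 3.14, 3.39 and 3.85 FPKM, and in the knockdown at 5.26, 7.31 and 5.55. Every 5-OH-TMT library lay below every TNF-α library, a difference of -0.45 on the log2 scale (SE 0.188), but overlapped medium. Against TNF-α the knockdown differed by 0.33 (95% interval -0.09 to 0.74, limma adjusted p = 0.271) with overlapping libraries. The knockdown libraries all lay above the 5-OH-TMT libraries, a difference of 0.78 (SE 0.188) given as a description because the 5-OH-TMT values entered the choice. It was 0.63 without knockdown replicate 2, where AHR was highest and the mitochondrial share lowest. AHR shares 2373 of its 8081 exonic bases with AC019117.2 on the same strand, which was listed at 0 in every library. What the shared bases do to the count of either gene was not tested.

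ARNT, the partner that AHR needs to bind DNA, kept within a narrow range. It lay at 6.28 to 7.12 FPKM in medium, 5.48 to 6.16 with TNF-α, 6.19 to 6.78 with 5-OH-TMT and 6.37 to 6.998 in the knockdown. The TNF-α libraries were thus the lowest of the 4 groups, without overlap with any other. The difference from medium was -0.19 on the log2 scale (SE 0.0776, adjusted p = 0.25) and that of the knockdown from TNF-α was 0.18 (adjusted p = 0.135), so neither passed the threshold of 0.05.

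AHRR, the repressor that competes with AHR for ARNT and is itself an AHR target, fell in the knockdown. On chromosome 5 from 304176 to 438291, it was at 2.83, 2.48 and 2.36 FPKM in medium and at 2.02, 1.81 and 2.17 with TNF-α. With 5-OH-TMT it was at 3.08, 2.67 and 3.00 FPKM, and in the knockdown at 1.18, 1.30 and 1.28. The order of the group means was 5-OH-TMT, medium, TNF-α and knockdown, and only the first 2 of these overlapped. The knockdown was below TNF-α by 0.63 on the log2 scale, a ratio of means of 0.626 (SE of the log2 change 0.108, adjusted p = 0.00195), and this call held with each library left out. The TNF-α libraries entered the choice of the members, so this p-value is a description and not an independent test. The knockdown was also below medium (log2 change -0.97, adjusted p = 4.55e-05) and, as a description, lay below every 5-OH-TMT library with a log2 difference of -1.16, the 5-OH-TMT values having entered the choice. TNF-α differed from medium by -0.34 (SE 0.108, adjusted p = 0.128), which did not pass, and 5-OH-TMT from medium by 0.19 (95% interval -0.05 to 0.42). AHRR shares 244 of its 7678 exonic bases with PDCD6 on the same strand, which moved the other way in the knockdown (0.24, adjusted p = 0.0299).

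TIPARP, the ADP-ribosyltransferase that modifies AHR and marks it for loss, had the highest mean of the 8 genes over the 12 libraries, 12.6 FPKM, and moved little. It lay at 10.7 to 12.6 FPKM in medium, 12.2 to 12.7 with TNF-α, 13.3 to 13.9 with 5-OH-TMT and 11.98 to 13.1 in the knockdown. The 5-OH-TMT libraries stood above all others, although the gap to the next library was small. Against medium their difference was 0.23 on the log2 scale (SE 0.0693), and 0.29 without medium replicate 3. The knockdown and TNF-α differed by less than 0.01, with a 95% interval of -0.15 to 0.16.

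CYP1A1, the monooxygenase most often read as a gauge of AHR activity, had the widest range of FPKM of the 8 genes. It lies on chromosome 15 from 74719542 to 74725610, on the minus strand. In medium it was at 13.5, 15.4 and 14.0 FPKM, from 1570 to 1695 reads, and with TNF-α at 5.17, 4.64 and 6.09, from 497 to 780 reads. With 5-OH-TMT it was at 18.8, 17.0 and 14.0 FPKM, and in the knockdown at 7.34, 6.91 and 8.15. The TNF-α libraries were the lowest, the knockdown libraries came next, and those of medium and 5-OH-TMT overlapped above them. The level with TNF-α was 0.371 times that in medium, a log2 difference of -1.42 (SE 0.122), and that with 5-OH-TMT was 3.13 times that with TNF-α, a log2 difference of 1.63 (SE 0.122). The 5-OH-TMT mean was 1.16 times that of medium, with a 95% interval of the log2 difference of -0.06 to 0.47. These 3 comparisons belong to the pattern that led to the choice of the gene, and no p-value is drawn from them.

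The knockdown libraries were not part of that choice, but the TNF-α libraries they are set against were, with CYP1A1 known to be low in them. As a description, CYP1A1 was at 1.41 times its level with TNF-α alone, a log2 difference of 0.49 (SE 0.122) with no overlap of the libraries. With 1 library left out it ran from 0.40, without TNF-α replicate 2, to 0.60. Against medium it was lower, at a ratio of 0.522 (log2 change -0.93, SE 0.122), and with 1 library left out the change ran from -0.99 to -0.88. This too is a description, because the medium libraries entered the choice. The knockdown mean was 0.45 times that with 5-OH-TMT, a log2 difference of -1.13 given as a description.

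CYP1A2, which lies beside CYP1A1 on the opposite strand and is known as a liver enzyme, was close to the limit of detection. It had 2, 3 and 6 reads in medium, 4, 2 and 5 with TNF-α, 12, 10 and 6 with 5-OH-TMT, and 4, 6 and 19 in the knockdown. The knockdown sum of 29 reads owed 19 to replicate 3, while all 5-OH-TMT libraries lay above all TNF-α libraries. The hepatocyte genes ALB, APOA1 and TTR had at most 6 reads in any library. The longest run of bases shared by transcripts of CYP1A1 and CYP1A2 was 40, and some reads could be shared between them.

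CYP1B1, the P450 enzyme that also oxidises oestrogens, ran lower than CYP1A1 and overlapped between every pair of groups described here. It lay at 2.51 to 3.71 FPKM in medium, 1.98 to 3.01 with TNF-α, 2.70 to 3.19 with 5-OH-TMT and 2.45 to 3.08 in the knockdown. TNF-α had the lowest group mean, 2.43 ± 0.53 FPKM (SD, n = 3). The log2 difference from medium was -0.33 (SE 0.168, adjusted p = 0.408) and that of the knockdown from TNF-α 0.17 (adjusted p = 0.533). An antisense gene, CYP1B1-AS1, shares 678 of its 6014 exonic bases, and whether strand was used in counting is not given in the sources used here.

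ALDH3A1, an aldehyde dehydrogenase of the AHR gene battery, was low throughout, with 43 to 178 reads per library. It was at 0.567, 0.748 and 0.797 FPKM in medium and at 0.682, 0.352 and 0.630 with TNF-α. With 5-OH-TMT it was at 1.29, 0.891 and 0.958 FPKM, and in the knockdown at 0.906, 0.623 and 0.588. The 5-OH-TMT libraries lay above all medium and TNF-α libraries and overlapped the knockdown only through its replicate 1. The 5-OH-TMT mean was 1.89 times that with TNF-α, a log2 difference of 0.83 (SE 0.243). Against medium the difference was 0.51 (SE 0.243), and the knockdown differed from TNF-α by 0.32 (adjusted p = 0.413), which did not pass.

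**Figure D2:**
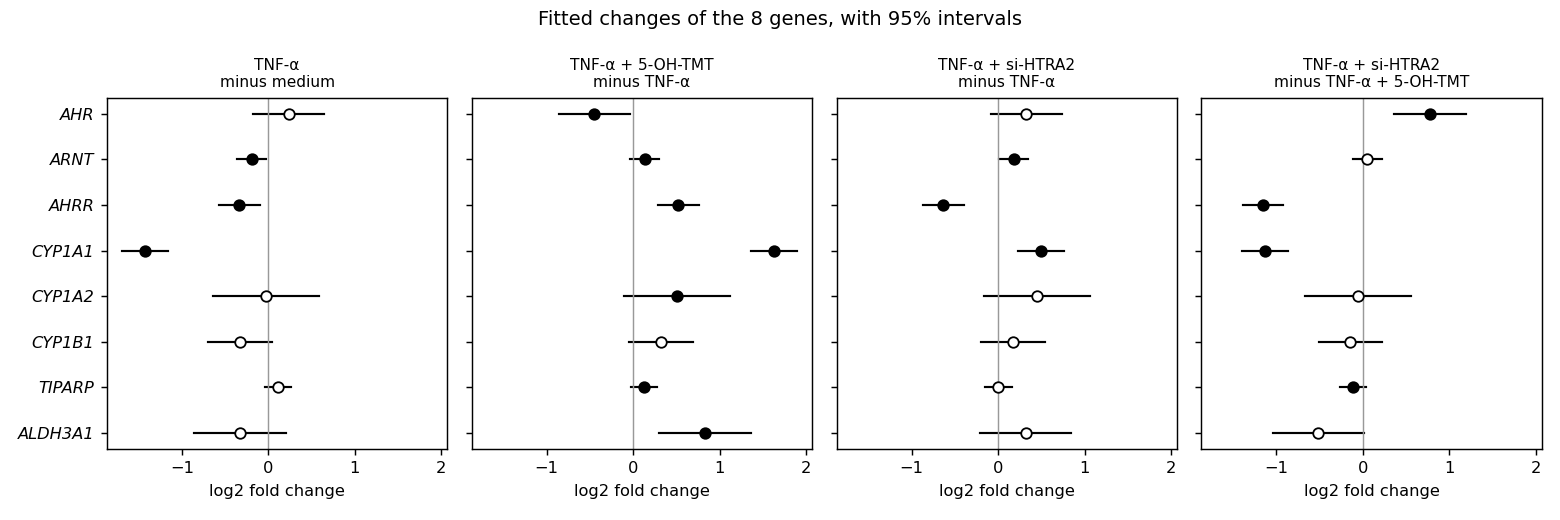
Fitted log2 changes (horizontal axes) with 95% intervals for the 8 genes in each comparison, with a filled point where the libraries of both groups do not overlap and an open point where they do. CYP1A1 stands at -1.42 for TNF-α against medium, 1.63 for 5-OH-TMT against TNF-α and 0.49 for the knockdown against TNF-α, and AHRR at -0.34, 0.52 and -0.63.

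Of the 7 members in the fit (CYP1A2 fell under its filter of a mean of 0.1 FPKM), 1, CYP1A1, was called at an adjusted p under 0.05 for TNF-α against medium, where 4.1% of all 18079 genes were called. For 5-OH-TMT against TNF-α 1, again CYP1A1, was called, beside 0.0387% of all genes. CYP1A1 entered the choice by these comparisons, so nothing is read from either count. The knockdown against TNF-α called 2 members, AHRR lower and CYP1A1 higher, beside 17.4% of all genes, and both calls rest on TNF-α libraries that entered the choice. By library, 3 of the 7 lay lower without overlap with TNF-α against medium (ARNT, AHRR and CYP1A1, beside 8.74% of all genes) and 0 higher (11.1%). CYP1A1 entered the choice by this comparison, so these counts are a description. With 5-OH-TMT against TNF-α the counts were 5 higher (16.3%) and 1 lower (15.5%), again as a description, and in the knockdown against TNF-α 2 higher (ARNT and CYP1A1, 17.5%) and 1 lower (AHRR, 16.4%). The median log2 change of the 7 members was -0.33 against -0.0020 for all genes with TNF-α, 0.32 against 0 with 5-OH-TMT, and 0.18 against -0.0034 in the knockdown. The TNF-α libraries, which entered the choice, are in each of these medians, and the 5-OH-TMT median uses the comparison that led to it. Nothing is therefore read from them. With 5-OH-TMT against medium no member was called by limma on log2 FPKM or by voom on the recovered reads (6.55% of all genes were by the former), and 1, TIPARP, had an unadjusted p under 0.05; this count too uses the 5-OH-TMT values. The knockdown against medium called 3 members, AHRR as given, CYP1A1 and AHR, where 24.3% of all genes were called. The CYP1A1 call rests on medium libraries that entered the choice. AHR stood at 0.56 (adjusted p = 0.049) with overlapping libraries. The AHR call was lost under 6 of 10 other settings and in 5 of 6 fits that left out a library. The knockdown against 5-OH-TMT called 3, AHR, AHRR and CYP1A1, beside 15.3% of all genes, and since the 5-OH-TMT values entered the choice nothing is read from this count. The comparisons share the TNF-α, 5-OH-TMT or medium libraries and are therefore not independent of each other.

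AHRR and CYP1A1 were set side by side after their values were seen. The ratio of CYP1A1 to AHRR within a library was 2.56, 2.56 and 2.81 with TNF-α. It was 4.78 to 6.19 in medium, 4.65 to 6.37 with 5-OH-TMT and 5.31 to 6.35 in the knockdown. TNF-α libraries therefore had the lowest ratio and the other 3 groups overlapped, although the knockdown reached its ratio with both genes below medium. Across the 12 libraries, which fall into 4 groups and share 1 normalization, Pearson's r on log2 FPKM was 0.68 for CYP1A1 with AHRR, 0.69 with ALDH3A1 and 0.57 with CYP1B1. AHR went the other way, with r = -0.77 for AHRR and -0.62 for CYP1A1.

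**Figure D3:**
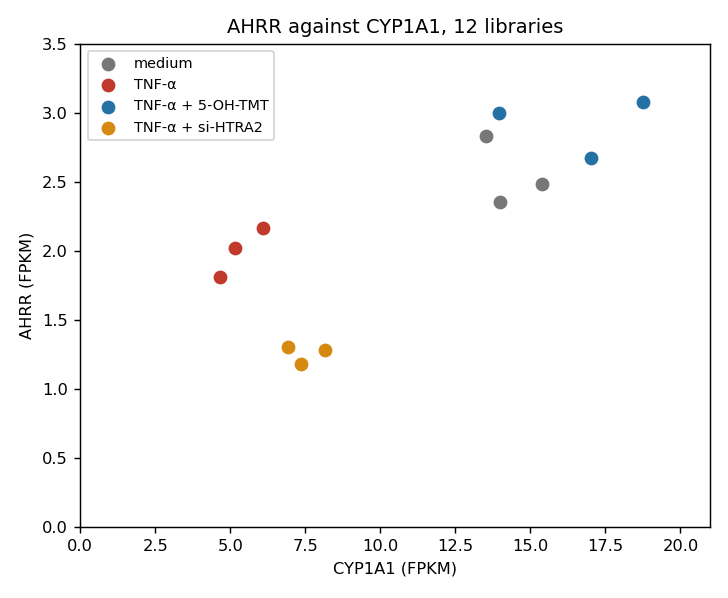
AHRR (vertical axis, FPKM) against CYP1A1 (horizontal axis, FPKM), 1 point for each of the 12 libraries. The TNF-α points sit at CYP1A1 levels of 4.64 to 6.09 with AHRR at 1.81 to 2.17, and the knockdown points lie to the right and below them, with AHRR at 1.18 to 1.30.

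The genes most like CYP1A1, among 11184 genes with a mean of at least 1 FPKM, were B3GAT3 (r = 0.91 over the 12 libraries), FBXW9 (0.90), FLYWCH1 (0.89), RARG (0.88) and TP53I3 (0.88). None is on the lists of pathway genes. Each had its lowest group mean with TNF-α, as CYP1A1 did, but over a narrower range, with B3GAT3 at 15.6, 12.6, 16.0 and 13.5 FPKM in medium, TNF-α, 5-OH-TMT and the knockdown. They were picked for their correlation with CYP1A1 over the same libraries, so the shared lowest group is largely set by that choice.

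Other genes of the pathway were taken from lists of 38 genes, of which 31 could be tested. The chaperone complex and co-activators of AHR held genes that moved both ways in the knockdown: of 10 tested, 2 rose and 3 fell against TNF-α, where 17.4% of all genes were called in either direction. NCOA2 and NCOA3, which help nuclear factors switch on transcription, rose by 0.70 each on the log2 scale (adjusted p = 0.00507 and 0.000159), NCOA3 from 25.5 ± 2.56 to 41.4 ± 1.94 FPKM (SD, n = 3). HSP90AA1, which encodes the inducible HSP90, fell by 0.81 (adjusted p = 0.00043), from 360 to 401 FPKM down to 195 to 259. HSP90AB1, the constitutive HSP90, and PTGES3 fell by 0.33 and 0.34 (adjusted p = 0.00797 and 0.0153). The PTGES3 call was lost without TNF-α replicate 2 or 3 or knockdown replicate 1 (adjusted p = 0.0618, 0.0545 and 0.0716), and that of HSP90AB1 with quantile normalization or no filter (0.0577 and 0.0747). In TNF-α against medium and in 5-OH-TMT against TNF-α none of the 10 was called by limma. HSP90AA1 and PTGES3 passed for 5-OH-TMT in a fit of the 2 groups alone, which called 1260 of 18012 genes. At an unadjusted p under 0.05 there were 0 and 3 in these comparisons. The share of all genes at that threshold is not given, so nothing is read from these counts. The 3 were HSP90AA1, HSP90AB1 and PTGES3, all lower with 5-OH-TMT in every library (-0.36, -0.21 and -0.31, adjusted p = 0.129, 0.147 and 0.108). HSP90AB1 passed with voom, which called 236 of 18079 genes.

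Among the other drug-metabolism genes 5 of 8 could be tested, and GSTA1 and GSTA2, glutathione transferases, were listed at 0 everywhere. CYP2S1, a P450 of epithelia, was at 9.21 to 10.3 FPKM in medium, 6.55 to 7.73 with TNF-α, 9.25 to 10.2 with 5-OH-TMT and 7.85 to 12.8 in the knockdown, so TNF-α was again the lowest group. Its change passed for the knockdown against TNF-α (0.50, adjusted p = 0.0275) and not for TNF-α against medium (-0.44, adjusted p = 0.124) or 5-OH-TMT against TNF-α (0.45, adjusted p = 0.131). In a fit of the 2 groups alone the latter comparisons both passed (adjusted p = 0.0474 and 0.0329), and with voom TNF-α against medium did (0.0405). The fits of 2 groups called 505 of 18022 and 1260 of 18012 genes, and that voom fit called 862 of 18079. The knockdown call was lost in 3 of 10 other settings (adjusted p up to 0.0936) and without TNF-α replicate 1 or 3 or knockdown replicate 1 or 3 (0.0687, 0.0961, 0.0857 and 0.083). NQO1, the quinone reductase, was at 121 to 130 FPKM in medium, 112 to 116 with TNF-α, 121 to 138 with 5-OH-TMT and 108 to 116 in the knockdown. Its TNF-α libraries lay below all those of medium and 5-OH-TMT and overlapped the knockdown. The difference of 5-OH-TMT from TNF-α was small and did not pass (0.19, adjusted p = 0.139), and TNF-α against medium was not called. XDH, xanthine dehydrogenase, rose with TNF-α from 7.33 ± 0.28 to 9.89 ± 0.369 FPKM (0.43, adjusted p = 0.0038), and ABCG2, an efflux transporter, fell in the knockdown by 0.41 (adjusted p = 0.000454).

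Of 11 further genes described as AHR targets, 4 rose with TNF-α and none fell, where 4.1% of all genes were called in either direction: SERPINB2 by 2.86, EREG by 1.05, NEDD9 by 0.56 and STC2 by 0.54 on the log2 scale (limma adjusted p = 6.28e-08, 0.000756, 0.00443 and 0.00722). SERPINB2, a protease inhibitor, and EREG, an EGF receptor ligand, are also known to respond to TNF itself. These 4 targets thus rose in the comparison in which CYP1A1 was lower, and the other 7 were not called. At an unadjusted p under 0.05 by limma there were 8 of the 11, 7 of them higher. The share of all genes at that threshold is not given, so nothing is read from this count. SLC7A5, an amino acid transporter, was not called but lay lower without overlap, at 552 to 683 FPKM with TNF-α against 697 to 814 in medium. With 5-OH-TMT it was at 809 to 849 FPKM, and in the knockdown at 403 to 548, below every TNF-α library. EREG and CDKN1B, an inhibitor of the cell cycle, lay lower with 5-OH-TMT than with TNF-α, without overlap. Their log2 differences were -0.50 and -0.20 (limma adjusted p = 0.111 and 0.208), which did not pass in the fit of all 4 groups. NEDD9, a scaffold protein of adhesion, lay at 10.6 to 11.3 FPKM with TNF-α, 13.3 to 16.3 with 5-OH-TMT and 15.5 to 19.3 in the knockdown. The knockdown change of NEDD9 passed (0.69, adjusted p = 0.000485), while that with 5-OH-TMT did not (0.47, adjusted p = 0.0844) except with a filter of at least 1 FPKM, in a fit of the 2 groups alone and with voom. For 5-OH-TMT against TNF-α those fits called 127 of 11185, 1260 of 18012 and 236 of 18079 genes. STC2, a secreted glycoprotein, fell in the knockdown by 0.39 (adjusted p = 0.019), a call lost without TNF-α replicate 2 or 3 or knockdown replicate 1 or 2 (0.0663, 0.0515, 0.0566 and 0.0552). With 5-OH-TMT against TNF-α none of the 31 genes was called by limma on log2 FPKM, and 3 were called by voom, beside 236 of all 18079 genes. At an unadjusted p under 0.05 by limma there were 9, of which 4 were higher, and nothing is read from this count either.

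**Figure D4:**
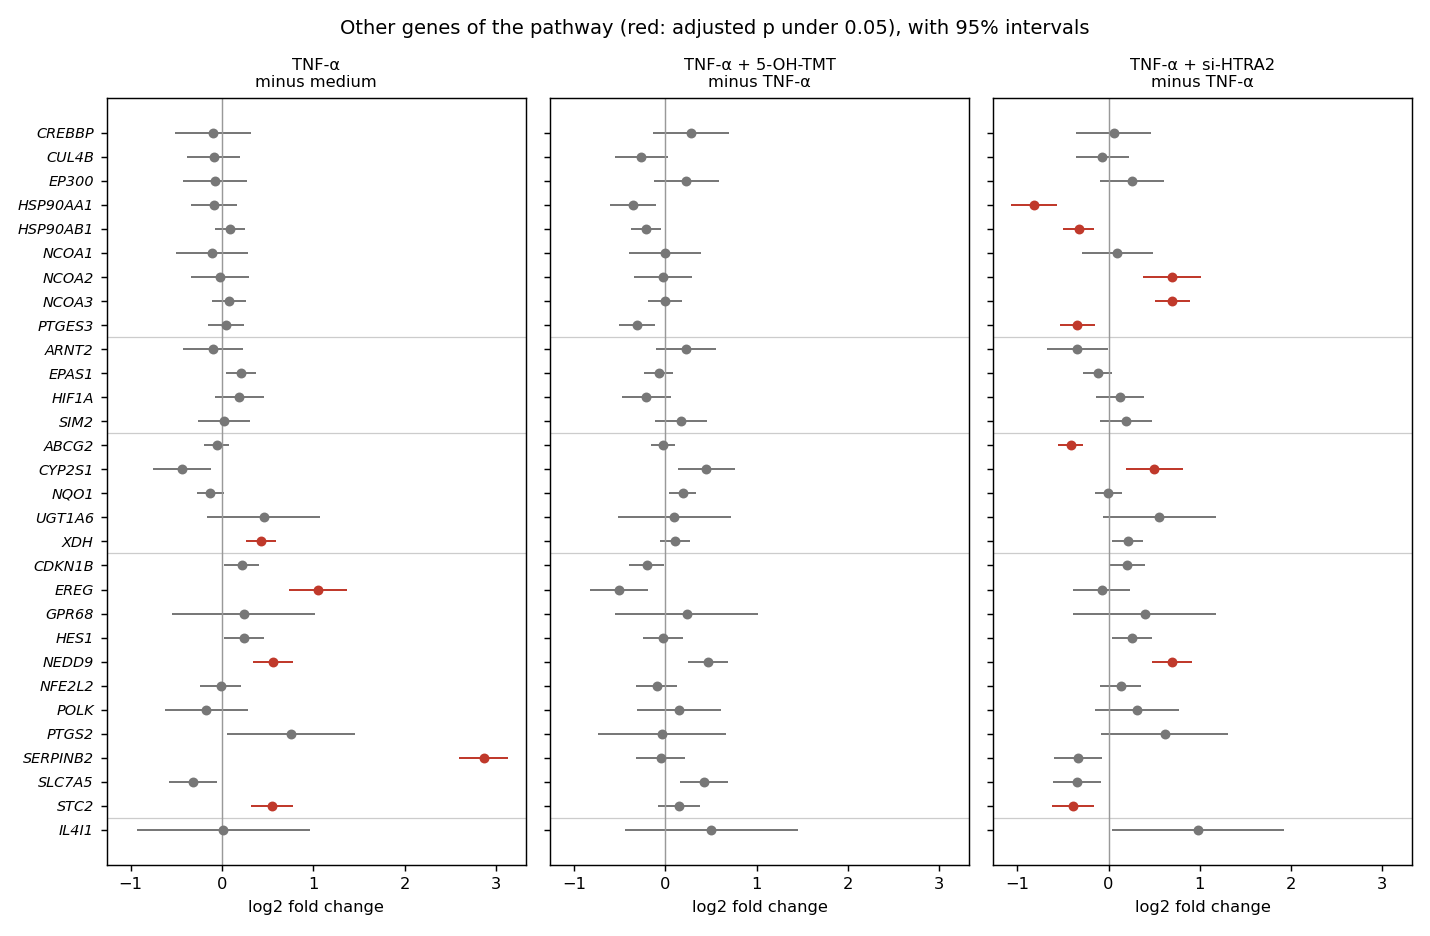
Fitted log2 changes (horizontal axes, 1 scale for all panels) with 95% intervals for the tested genes of the pathway lists, all but 1, in the 3 comparisons, with red points for an adjusted p under 0.05. TNF-α against medium has 5 red points, all above 0, 5-OH-TMT against TNF-α has none, and the knockdown against TNF-α has 4 above 0 and 5 below.

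Enzymes that make AHR ligands from tryptophan were near the limit of detection. IDO1, which opens the kynurenine pathway and is known to respond to interferon, had 0 to 9 reads with TNF-α and 18 to 31 in the knockdown (1.34 on the log2 scale, adjusted p = 0.0066, in a fit without the filter on low genes), a change that ran from 0.24 to 4.19 over the pseudocounts and other settings and was not called in a fit of the 2 groups alone (adjusted p = 0.0645). TDO2 had at most 10 reads in any library. Of the 4 other bHLH-PAS genes tested, none was called in these 3 comparisons, among them HIF1A at 26.2 to 42.1 FPKM over all libraries.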

How the data were processed

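NCM460 RNA was measured in 12 poly(A) libraries, 3 for each of 4 groups taken from the sample labels. The authors deposited a table of FPKM, with the length of each gene. The submitters' processing notes name CASAVA 1.8, HISAT2 2.0.4, HTSeq 0.9.1 and hg38. Gene identifiers and coordinates matched GENCODE 29 for 100% of the 58735 genes. Whole reads were recovered from the FPKM (100% whole within 0.05), 31008429 to 37624399 per library, and 3 reads correspond to 0.0805 to 0.0962 FPKM for a gene of 1 kilobase. Values were modelled as log2(FPKM + 0.1) in limma 3.58.1 (R 4.3.3), with 1 mean for each group and eBayes with a trend, over 18079 genes averaging 0.1 FPKM or more, and p-values were two-sided and adjusted over all genes tested (Benjamini-Hochberg). Fold changes are on that scale, which understates low genes. Genes under the filter came from a fit of all genes above 0 in at least 1 library. In simulated data 200 well-counted genes were changed by 2 on the log2 scale, with the same variability set for every gene. The fit recovered all 200 and made 12 to 20 false calls, somewhat more than the threshold of 0.05 allows. That change is larger than most reported here, so recovery of smaller changes, of low genes and at the real spread was not tested. The labels do not say whether replicates were separate cultures, so p-values measure only the spread between these libraries, which may be technical.

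The members and lists were chosen with earlier results of these data known. Named were the 8 members, HTRA2, pathway list genes with an adjusted p under 0.05 in the comparison described, and the 5 genes most correlated with CYP1A1. Markers, overlapping genes and list genes named for their level or place in the pathway (NQO1, HIF1A, TDO2, GSTA1, GSTA2, and HSP90AA1, HSP90AB1, PTGES3, CYP2S1, NEDD9, SLC7A5, EREG, CDKN1B and STC2 where not called) were named outside this rule after their values were seen. The replicate numbers did not pair libraries: correlations of same-numbered libraries' deviations ran from -0.37 to 0.15. Alternatives were other pseudocounts, filters and scalings, voom on the recovered reads, eBayes without trend, a fit of only 2 groups, a block for the replicate number, and leaving out each library. A planned comparison of protein sequences was not made, and single list genes counted in the totals are not reported here by name.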

Additional observations from a re-analysis of the deposited data

How the results depend on the processing

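Of 1354 values of single genes under the alternatives, 1261 kept their direction and, where the threshold was scored, their side of it. Of the rest 62 lost a call, 10 gained one, 5 without a test moved by more than the spread and 16 changed sign. The members' values for 5-OH-TMT against TNF-α were scored without the threshold, so a call that AHRR gained there is not among the 10. For 5-OH-TMT against TNF-α, 2 members instead of 1 were called with a filter of a mean FPKM of at least 1, in a fit of those groups only and with voom, and the list genes called were 1, 6 and 3 instead of 0. Over all genes these fits called 127 of 11185, 1260 of 18012 and 236 of 18079, where the main fit called 7 of 18079. Leaving out a library gave 1 to 2 members in the knockdown versus TNF-α (1 without TNF-α replicate 2 or knockdown replicate 3) and 0 to 1 for 5-OH-TMT versus medium. The changes of sign were all in uncalled genes near 0. With libraries left out, their log2 changes ran from -0.13 to 0.10 for CYP1A2 (TNF-α versus medium), -0.37 to 0.15 for CYP1A2 (knockdown versus 5-OH-TMT), -0.028 to 0.038 for TIPARP (knockdown versus TNF-α, with -0.0036 by voom), -0.14 to 0.13 for CYP1B1 (5-OH-TMT versus medium), and, in the knockdown versus medium, -0.059 to 0.030 for ARNT and -0.18 to 0.096 for ALDH3A1. The cause was not tested. The replicate numbers did not pair the libraries (4 of 12 libraries correlated best with their own number). With the replicate block the members called stayed at 1 for TNF-α versus medium, 1 for 5-OH-TMT versus TNF-α and 2 for the knockdown versus TNF-α, and the list genes called at 5, 0 and 9, while calls over all genes went from 742, 7 and 3152 to 600, 1 and 2660. Voom called 236 genes instead of 7 for 5-OH-TMT. The filter of at least 1 FPKM gave no value for CYP1A2, IDO1 or ALDH3A1. Depth limits CYP1A2, at 2 to 19 reads, and 3 libraries against 3 cannot give an exact permutation p below 0.1.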

Other observations

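Some genes of the pathway lists differed in comparisons that the account above does not cover. In the knockdown against 5-OH-TMT, SLC7A5, a transporter of tryptophan and other large amino acids, fell by 0.77 on the log2 scale (limma adjusted p = 0.00138), from 823 ± 21.9 to 487 ± 74.9 FPKM (SD, n = 3). ARNT2, a relative of ARNT, fell by 0.57 (adjusted p = 0.0237), and CDKN1B, an inhibitor of the cell cycle, rose by 0.41 (adjusted p = 0.00816). The ARNT2 call was lost in 5 of 6 fits that left out a library. In the same comparison NCOA2 and NCOA3 rose by 0.72 and 0.70 (adjusted p = 0.00597 and 0.000276). With 5-OH-TMT against medium, NEDD9 rose by 1.03 and STC2 by 0.70 (adjusted p = 3.23e-05 and 0.00096). The 5-OH-TMT libraries also carried TNF-α, which raised both genes without 5-OH-TMT. Against TNF-α they differed by 0.47 and 0.15 (adjusted p = 0.0844 and 0.409), which did not pass. HSP90AA1 fell by 0.45 with 5-OH-TMT against medium (adjusted p = 0.0302). This call was lost in 5 of 6 fits that left out a library and under 4 of 10 other settings, the replicate block among them.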
